A study of Mus musculus with 1920 samples.

Results

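The 10 genes followed here belong to the sirtuin and mTORC1 nutrient-sensing pathways and were measured in single Lgr5-high intestinal stem cells (ISCs) of young and aged mice. The members were Sirt1, Sirt3, Sirt6, Nampt, Bst1, Mtor, Rptor, Tsc1, Tsc2 and Ppargc1a, which are 10 of the 55471 gene identifiers in the read count matrix. They were chosen by name, and each had 1 row in the matrix. Single cells of 3 young and 4 aged mice were sorted as Lgr5-high from small intestinal crypts and sequenced by a full-length Smart-seq2 type method. All 7 mice carried Lgr5tm1(cre/ERT2)Cle/J in the strain written B6.129P2, a knock-in reporter in which the Lgr5 locus drives EGFP and an inducible Cre, so young and aged mice shared the altered Lgr5 allele. No treatment is given for these mice. The labels call the groups young and old and give no age for these animals. The mouse was the replicate in all fits but 1 alternative, described with Bst1. A cell entered with 1000 or more detected genes, so 1836 cells stayed and 84 were removed.

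Sirtuins are NAD-dependent deacylases that act in the nucleus (Sirt1, Sirt6) or in mitochondria (Sirt3). Nampt makes the NAD precursor NMN inside cells, and Bst1 is a cell surface ecto-enzyme that uses NAD. The kinase Mtor and its partner Rptor form mTORC1, which promotes protein synthesis when amino acids and growth factors are at hand, and the Tsc1-Tsc2 complex holds it back through Rheb. Ppargc1a encodes PGC-1α, a coactivator of mitochondrial genes that Sirt1 can deacetylate. In the crypt, mTORC1 activity in Paneth cells and in ISCs is known as a link between diet and stem cell number.

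The libraries held 49447464 to 134408884 reads on genes per mouse. The depth did not differ detectably between ages (exact two-sided permutation test, p = 0.629, n = 3 and 4). The cell names carry a code that 384 cells have in common, taken here as the lane, and 3 of the 5 lanes held both ages. At least 1 Lgr5 read was found in 93.1% to 99.5% of the cells of each mouse. Each cell was assigned to the marker list with the highest mean log2(CPM + 1), where CPM is a gene's read count scaled to a common library total. The ISC list led in 1564 cells, the Paneth list in 108, the enterocyte list in 72, the goblet list in 69 and other lists in the rest, so that 85.2% of the sorted cells were ISC-marker-led. The 3 young mice had 91.2% ± 3.28 (SD) ISC-marker-led cells and the 4 aged mice 79.7% ± 7.26 (exact permutation p = 0.114). The Paneth list led in 4.06% ± 2.34 of young and 8.05% ± 2.51 of aged cells (exact permutation p = 0.114). With 3 and 4 mice this two-sided test cannot give a p under 0.05, so it does not show that depth or cell shares were equal. The summed Paneth list ranged from 6940 to 23652 CPM in young and from 11224 to 26501 CPM in aged mice, with all 12 markers detected in each mouse. Summed immune markers stayed under 4.21 CPM and summed stromal markers under 4.86 CPM in every mouse.

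The members were expressed at unequal levels. Per kilobase of exon, and averaged over the 7 mice, Sirt6 had the highest level with 8.44 ± 3.49 CPM per kb (SD, n = 7). Tsc2 followed with 6.37 ± 0.781, Nampt with 6.35 ± 1.35 and Ppargc1a with 4.82 ± 1.85 CPM per kb. Tsc1 (3.93 ± 0.794), Sirt3 (3.71 ± 0.730), Mtor (3.24 ± 0.410) and Rptor (2.14 ± 0.437 CPM per kb) came next. Sirt1 at 0.773 ± 0.232 and Bst1 at 0.762 ± 0.752 CPM per kb were lowest. The ranges of the mice overlapped in 8 of the 9 pairs of neighbours in this order. The exception was the step from Rptor, whose lowest mouse had 1.81 CPM per kb, to Sirt1, whose highest mouse had 1.13. Reads of 1 member in 1 mouse numbered between 52 and 9347. In these cells at full depth, Tsc2 had a read in 88.8% of kept cells, Mtor in 79.7%, Sirt1 in 29.6% and Bst1 in 6.15%. Fewer cells of a type and less RNA per cell cannot be told apart in the sums per mouse.

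The sirtuins were compared first. Sirt1 (chr10:63319005-63381704, minus strand) had 2.61, 5.62 and 3.82 CPM in the young mice and 3.49, 6.04, 3.58 and 3.69 CPM in aged mice 1 to 4. The groups overlapped, and aged mouse 2 stood above the other aged mice. The fitted log2 fold change of aged against young was 0.13 ± 0.34 (SE), and leaving out young mouse 1, aged mouse 2 or weighting cells equally turned its sign. Sirt3 (chr7:140863666-140882309, minus strand) had 19.2, 23.9 and 20.2 CPM in young and 27.1, 26.4, 14.8 and 23.4 CPM in aged mice. Aged mouse 3 was below all young mice and aged mice 1 and 2 above them, and the fold change was 0.18 ± 0.22. Sirt3 shares 418 exonic bases with Ric8a and 342 with Psmd13 on the opposite strand, and whether the counting used strand is not given in the sources used here, so reads of these genes may not be separated. Sirt6 (chr10:81621785-81627797, minus strand) had 31.5, 18.1 and 15.4 CPM in young and 21.4, 19.3, 42.0 and 16.9 CPM in aged mice. Young mouse 1 and aged mouse 3, which shared a lane, were the highest of their groups. The log2 fold change of Sirt6 was 0.25 ± 0.37, and it was -0.12 without aged mouse 3.

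The NAD enzymes came next. Nampt (chr12:32819545-32853349, plus strand), the rate-limiting enzyme of NAD salvage, had 27.2, 39.2 and 25.7 CPM in young and 41.5, 28.7, 36.9 and 25.6 CPM in aged mice. The groups covered almost the same range, and the log2 fold change was 0.17 ± 0.21. Bst1 (chr5:43818885-43843986, plus strand), also known as CD157, had 1.29, 1.44 and 0.626 CPM in young and 0.898, 4.44, 1.59 and 7.41 CPM in aged mice. Aged mice 2, 3 and 4 lay above all young mice, while aged mouse 1 lay within their range. Its log2 fold change of 1.76 ± 0.71 had a 95% interval from 0.17 to 3.35 and an adjusted p of 0.897 (edgeR quasi-likelihood test, Benjamini-Hochberg). Over 20 alternatives the adjusted p lay between 0.301 and 1.00. The value was 1.10 without aged mouse 4 and 2.08 without aged mouse 1. It was 0.65 with the lane as a block, where young mouse 2 entered as separate sums for its 2 lanes. Young mouse 3 and aged mouse 4 were each alone in a lane and so did not inform that value. In the lanes that held both ages, the difference of aged minus young in log2(CPM + 1) was -0.92 for aged mouse 1, 1.89 for aged mouse 2 and 0.18 for aged mouse 3. Bst1 shares 98 exonic bases with Fbxl5 on the opposite strand, so reads of Fbxl5 may not be separated.

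The share of enterocyte-marker-led cells was likewise above all young mice in aged mice 2, 3 and 4. It was 2.50%, 0.541% and 1.60% in the young mice and 1.06%, 5.38%, 6.35% and 9.84% in aged mice 1 to 4. Within the groups the orders differed: young mouse 2 had the lowest share and the highest young Bst1, and aged mouse 3 had a higher share and less Bst1 than aged mouse 2. Young mice 1 and 2 and aged mouse 1 had fewer than 5 such cells each, so these orders rest on few cells. The part of enterocyte-marker-led cells in the difference of Bst1 between ages was not tested. The enterocyte list, all 12 markers of which were detected in every mouse, summed to 836 to 1089 CPM in young and 816 to 2424 CPM in aged mice, and aged mouse 1 was the lowest. Without the enterocyte-marker-led cells, a setting chosen after seeing the data, the log2 fold change of Bst1 was 2.35 with an adjusted p of 0.796 (edgeR). In ISC-marker-led cells alone it was 2.60 with an adjusted p of 0.918 (edgeR), from 137 reads in all mice together. In those cells Bst1 had 0.0684, 0.0628 and 0.0650 CPM in young and 0.0183, 0.447, 0.384 and 0.676 CPM in aged mice, so aged mouse 1 was again the lowest.

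The mTORC1 kinase and its regulators were not called between ages. Mtor (chr4:148448611-148557683, plus strand) had 31.2, 29.9 and 34.8 CPM in young and 31.7, 31.6, 28.8 and 41.2 CPM in aged mice. Aged mouse 4 was the highest, and the log2 fold change was 0.11 ± 0.18. Rptor (chr11:119602905-119899576, plus strand), the scaffold that binds mTORC1 substrates, had 31.7, 24.6 and 29.0 CPM in young and 25.3, 24.4, 26.4 and 40.8 CPM in aged mice. Here too aged mouse 4 stood apart, and the log2 fold change of 0.10 ± 0.23 became -0.13 without it. Its sign also turned without young mouse 2, with equal weight of cells, with the lane as a block and with the replicate number as a block. Tsc1 (chr2:28641228-28691167, plus strand), which stabilises Tsc2, had 51.9, 40.6 and 61.0 CPM in young and 41.2, 38.7, 37.1 and 55.3 CPM in aged mice, and its log2 fold change was -0.20 ± 0.21. Tsc2 (chr17:24595816-24632630, minus strand), the GTPase-activating subunit toward Rheb, had 65.2, 66.5 and 61.8 CPM in young and 55.3, 60.2, 48.5 and 71.1 CPM in aged mice. Aged mice 1 to 3 lay below all young mice and aged mouse 4 above them. Its log2 fold change was -0.08 ± 0.17. Tsc2 shares 693 exonic bases with Pkd1 on the opposite strand.

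Ppargc1a (chr5:51454250-51567726, minus strand) had 26.2, 37.8 and 43.3 CPM in young and 43.5, 38.4, 11.4 and 22.0 CPM in aged mice. Aged mice 3 and 4 were below all young mice and aged mouse 1 was the highest of the 7. The log2 fold change was -0.27 ± 0.39, and without aged mouse 3 it was 0.00. The study ranked genes on these same cells and lists Ppargc1a among them, so its direction here is not independent evidence. Bst1 and Ppargc1a were each called in 2 of the cell comparisons described further on. RefSeq promoters were matched for 9 of the 10 members, all but Bst1, and that of Ppargc1a is shown. The 250 bases before the annotated start (GRCm38.p6, chr5:51567726-51567975, minus strand, 5′ to 3′) are printed with the match to the cAMP response element half-site in capitals.
Ppargc1a promoter: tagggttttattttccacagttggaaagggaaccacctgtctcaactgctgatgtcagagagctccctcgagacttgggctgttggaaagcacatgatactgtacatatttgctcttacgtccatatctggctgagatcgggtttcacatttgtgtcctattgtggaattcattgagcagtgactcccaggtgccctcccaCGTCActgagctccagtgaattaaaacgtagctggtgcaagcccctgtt
The motif TGACG was searched on both strands, and its only match lies on the opposite strand from 49 to 45 bases before the start. The motif was also matched in promoters of Sirt1, Sirt3, Nampt, Rptor and Tsc1, so 6 of the 9 members had it in at least 1 promoter entry. These members had 11 entries, and whether the motif is more frequent in them was not tested. Counted per window and not per gene, the same letters are found in 17.9% of 32536 distinct mouse promoter windows of 250 bases. The E-box CACGTG, found in 6.04% of them, had no match in this window and 2 matches in that of Sirt1.

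**Figure D1:**
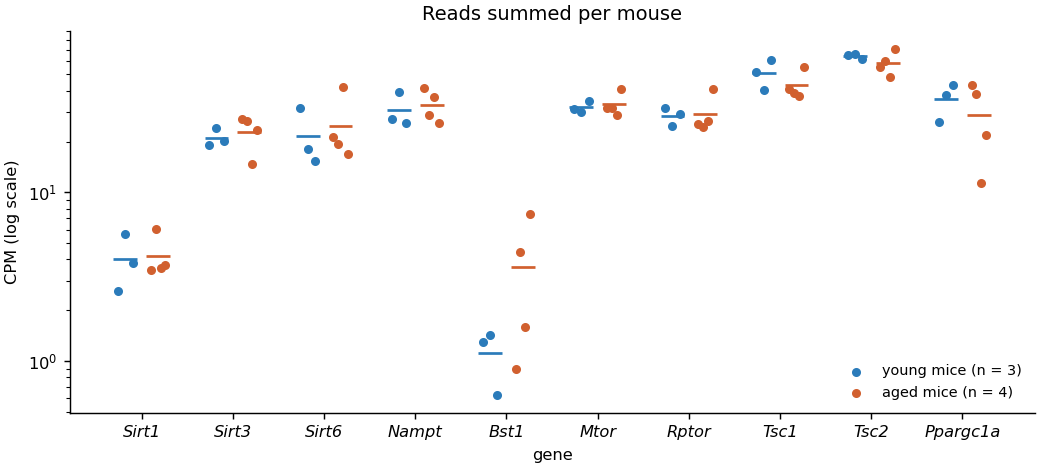
CPM per mouse on a log scale for the 10 genes, with 1 point per mouse (blue, young, n = 3; orange, aged, n = 4) and a bar at each group's mean. The age groups overlap for each gene, and Bst1 ranges from 0.626 to 7.41 CPM.

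None of the 10 members was called between ages. The test was edgeR's quasi-likelihood test at an adjusted p under 0.05. It called 0 (0%) of the 20957 genes tested. At an unadjusted p under 0.05 it had 1098 genes (5.24%), and Bst1 was the only member among them. DESeq2 called 177 of 20867 genes (0.848%) and 0 of the members. The adjusted p of the other 9 members was 1.00 with edgeR. Of the 10 fold changes 7 were positive, with a median of 0.12 on the log2 scale beside 0.01 for all genes tested. The intervals bound the size of a difference: for Mtor the log2 interval was -0.29 to 0.52, for Tsc2 -0.45 to 0.30, and for Ppargc1a -1.14 to 0.61. The CPM of 0 of 10 members did not overlap between the age groups, beside 5.92% of all genes tested. Without aged mouse 1 the groups did not overlap for Bst1, and without aged mouse 4 they did not for Tsc2. Smaller groups separate more easily, and the share of all genes with a mouse left out was not counted. Within the 3 lanes that held both ages, Sirt6 was higher in the aged mouse in 3 of 3 and Tsc2 lower in 3 of 3, with differences in log2(CPM + 1) of 0.08 to 0.41 and of -0.42 to -0.12. The other 8 members differed in sign between lanes, and young mouse 2 served in 2 of these lanes. The share of all genes with the same sign in the 3 lanes was not counted. The lanes therefore do not set Sirt6 and Tsc2 apart from other genes.

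The share of cells with a read was compared at equal depth, with cells thinned to 100000 reads. This used 1732 cells and left out 104 shallower ones, 4 to 25 per mouse. Bst1 was found in 2.74%, 1.42% and 1.61% of the thinned cells of young mice and in 2.41%, 9.50%, 6.82% and 9.97% of those of aged mice. Aged mouse 1 again lay within the young range. Sirt1 was found in 17.9% ± 5.16 of young and 20.1% ± 7.08 of aged cells. Sirt3 was found in 51.3% ± 3.49 and 55.3% ± 2.48, and Sirt6 in 48.8% ± 4.81 and 54.7% ± 3.97. Mtor was found in 71.4% ± 1.76 and 71.3% ± 4.25, and Tsc2 in 83.5% ± 4.67 and 85.2% ± 2.97. Nampt was found in 59.6% ± 9.72 and 65.1% ± 3.50, Tsc1 in 71.1% ± 5.32 and 75.1% ± 4.21, and Rptor in 60.8% ± 1.37 and 65.2% ± 10.4. The ranges of the age groups overlapped for each of these genes. Ppargc1a was found in 53.4%, 63.9% and 62.4% of young cells and in 65.1%, 60.9%, 39.2% and 48.4% of aged cells. The shares of 0 of 10 members separated the age groups, beside 6.54% of all genes tested. A cell held a read of 5 or 6 of the 10 members as the median of its mouse.

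**Figure D2:**
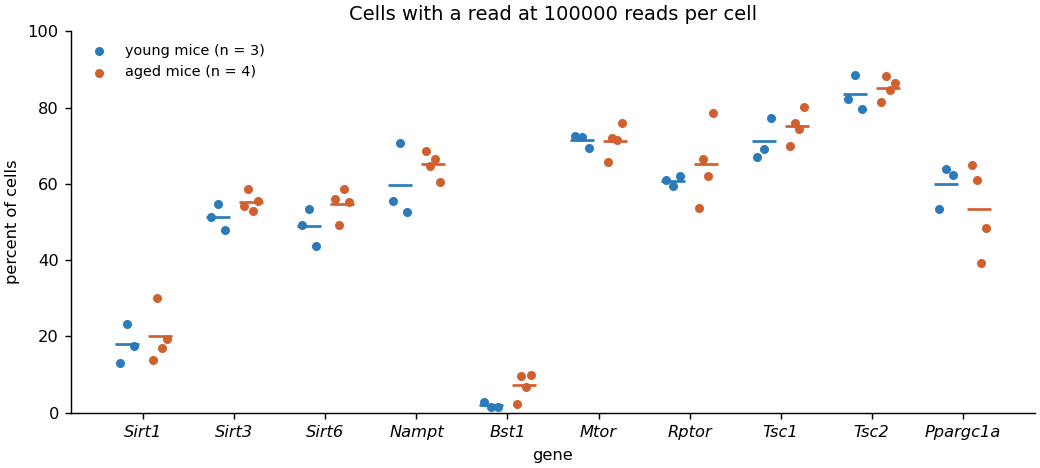
Percent of cells with at least 1 read of each gene after thinning to 100000 reads (1732 cells, 104 shallower ones left out), with 1 point per mouse (blue, young, n = 3; orange, aged, n = 4) and bars at group means. For Bst1 aged mice 2, 3 and 4 lie above the young mice, and aged mouse 1 at 2.41% does not.

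The other genes of the pathways were followed in 9 lists with 144 genes that matched a single row. Of these, 140 were tested between ages and 0 were called, and 3 were higher and 2 lower at an unadjusted p under 0.05. Among targets of mTORC1, Eif4ebp3, a translation repressor of the 4E-BP family, had 0.343 ± 0.184 CPM in young and 1.85 ± 1.35 CPM in aged mice. Its log2 fold change was 2.44 ± 0.72 with an adjusted p of 0.694 in edgeR, and of 20 alternatives DESeq2 alone called it (adjusted p = 0.0419, with the others up to 1.00). Psat1, an enzyme of serine synthesis, had 19.5 ± 4.98 and 28.6 ± 4.36 CPM. In the lysosomal amino acid list, Fnip1, a partner of folliculin, had 24.2 ± 0.884 CPM in young and 18.2 ± 1.35 CPM in aged mice with an adjusted p of 0.948 (edgeR). Ppard, a fatty acid sensing nuclear receptor, had 31.5 ± 1.31 and 21.4 ± 5.42 CPM, and the transcription factor Foxo1 had 11.8 ± 1.86 and 18.8 ± 8.34 CPM. The remaining lists had no gene under an unadjusted p of 0.05. Their genes of smallest p were Sirt4, Nadk2, Prr5, Tbc1d7, Camkk2 and Igf1r, with log2 fold changes from -0.47 for Igf1r to 0.62 for Camkk2.

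**Figure D3:**
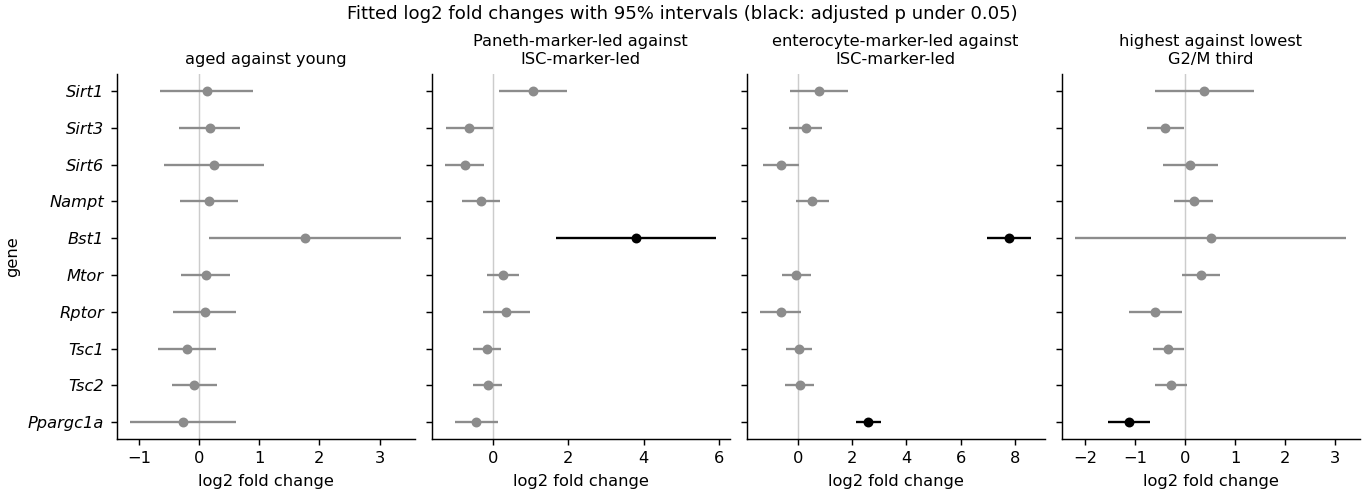
Log2 fold changes of the 10 genes with 95% intervals in the comparisons of age, Paneth-marker-led cells, enterocyte-marker-led cells and G2/M tertiles, with black marks for an adjusted p under 0.05 and grey for the rest. No member is black between ages, while Bst1 (7.78) and Ppargc1a (2.59) are black in enterocyte-marker-led cells.

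The cells led by enterocyte markers differed from ISC-marker-led cells of the same mice in both Bst1 and Ppargc1a. The 4 mice with at least 5 cells in both classes were young mouse 3 with 6 enterocyte-marker-led cells and aged mice 2, 3 and 4 with 10, 12 and 36. Alpi, a marker of the enterocyte list named after its values were seen, and Lgr5, of the ISC list, are unequal between the classes by the way these were assigned. Alpi had 1371 ± 615 CPM in enterocyte-marker-led and 7.38 ± 5.28 CPM in ISC-marker-led cells, and Lgr5 had 113 ± 69.4 and 345 ± 123 CPM. In aged mouse 3, however, Lgr5 was not lower in the enterocyte-marker-led cells (207 against 181 CPM), and the ISC marker Olfm4 had 10466 against 12106 CPM there. Paneth markers took between 0.0245% and 5.23% of the reads of the enterocyte-marker-led cells, and their part in the results was not tested. Bst1 had 24.4, 71.0, 33.9 and 124 CPM in the enterocyte-marker-led cells of these mice and 0.0650, 0.447, 0.384 and 0.676 CPM in their ISC-marker-led cells. It was higher in 4 of 4 mice, with a log2 fold change of 7.78 ± 0.38 and an adjusted p of 2.97e-10 (edgeR, mouse as a block). The 72 enterocyte-marker-led cells were 3.92% of the kept cells and held 77.3% of the 1746 Bst1 reads. Bst1 had a read in 57 of these 72 cells (79.2%) and in 28 of 1564 ISC-marker-led cells (1.79%), at median depths of 171572 and 316988 reads. The 18 cells with most Bst1 reads, a number chosen after the values were seen, held 60.1% of them. Ppargc1a had 213, 117, 67.0 and 80.4 CPM in the enterocyte-marker-led cells of young mouse 3 and aged mice 2, 3 and 4, and 41.5, 35.9, 9.72 and 19.9 CPM in their ISC-marker-led cells. It too was higher in 4 of 4 mice, by 2.59 ± 0.22 on the log2 scale (adjusted p = 1.61e-07, edgeR). Of the 10 members 2 were called higher, beside 9.76% of 19589 genes, and 0 lower, beside 9.99%. The other 8 had fold changes from -0.62 for Rptor and Sirt6 to 0.79 for Sirt1, where all genes had a median of -0.27. After thinning to 100000 reads, which left out shallower cells and kept 57 of the 72 enterocyte-marker-led cells of all mice (27 of 36 in aged mouse 4), Nampt was also called, higher by 0.75 (adjusted p = 0.0214), and Sirt6, lower with a log2 fold change of -1.31 (adjusted p = 0.00831, edgeR). Over the other alternatives the adjusted p reached 0.632 for Nampt and 0.671 for Sirt6. Over all genes the calls also rose, from 3869 of 19589 at full depth to 4851 of 15932 after thinning.

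In cells led by Paneth markers, Bst1 was called in the fit, but only 4 of 7 mice had it higher. All 7 mice entered, with 6 to 32 Paneth-marker-led cells each. Lyz1, which encodes Paneth cell lysozyme and belongs to the list that set the class, had 70043 ± 27368 CPM in these cells and 256 ± 34.7 CPM in ISC-marker-led cells. Bst1 had 0.334, 0 and 0 CPM in the Paneth-marker-led cells of young mice 1 to 3 and 4.65, 2.89, 0.256 and 11.7 CPM in those of aged mice 1 to 4. The fit gave 3.79 ± 1.01 (adjusted p = 0.0164, edgeR), a value that depends on the prior count because 2 young mice were at 0. Without aged mouse 4 it was 3.13 and was not called (adjusted p = 0.147), while under the other alternatives it was called, down to an adjusted p of 0.000276. The enterocyte marker Alpi moved with it in the same Paneth-marker-led cells, with 2.67, 0 and 0 CPM in young and 28.6, 90.4, 1.28 and 192 CPM in aged mice, and its part in the result was not tested. Ppargc1a had 11.1 ± 7.96 CPM in Paneth-marker-led and 30.8 ± 12.6 CPM in ISC-marker-led cells and was lower in 7 of 7 mice. Its fitted fold change of -0.43 ± 0.27 was not called. The 12 Paneth markers took 26.3% to 37.7% of the reads of Paneth-marker-led cells, which lowers the CPM of all other genes. The fit rescaled the sums by TMM, so its sign can differ from that by CPM. Mtor had 33.7 ± 4.60 CPM in ISC-marker-led and 19.1 ± 7.99 CPM in Paneth-marker-led cells, with a fitted log2 fold change of 0.28 ± 0.20. How much of this rescaling the Paneth markers account for was not tested. Sirt6 had 6.55 ± 1.71 and 25.3 ± 11.4 CPM, was lower in 7 of 7 mice, and missed the threshold with -0.74 ± 0.25 (adjusted p = 0.0523). Without young mouse 3 it passed at -0.89 (adjusted p = 0.0257), and under the other alternatives the adjusted p reached 0.139. Sirt1 had a fold change of 1.07 ± 0.43 (adjusted p = 0.103, edgeR) that DESeq2 called (1.22, adjusted p = 0.0194), and its adjusted p reached 0.353 under the others. Young mouse 2 had 18.1 CPM of Sirt1 in Paneth-marker-led cells and the other 6 mice 1.34 to 4.91 CPM. The mTORC1 members Mtor, Rptor, Tsc1 and Tsc2 had fold changes from -0.15 to 0.36 and were not called. One of 10 members was called higher, beside 6.47% of 19883 genes, and 0 lower, beside 8.33%. Higher genes were 43.7% of the calls with edgeR and 62.3% with DESeq2, and the median of all genes was -0.20 and -0.02.

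**Figure D4:**
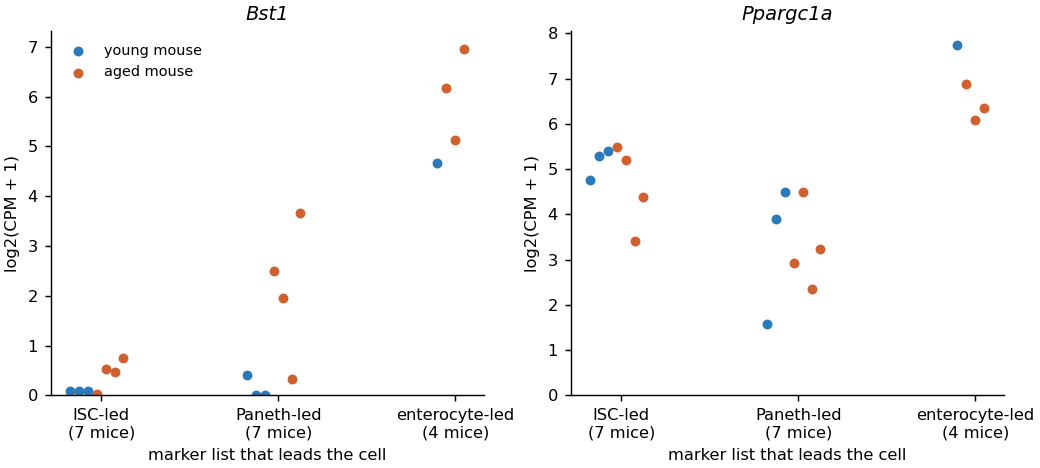
Bst1 and Ppargc1a as log2(CPM + 1) in ISC-marker-led and Paneth-marker-led cells of 7 mice and in enterocyte-marker-led cells of 4 mice, with 1 point per mouse (blue, young; orange, aged). The enterocyte-marker-led points lie above those of ISC-marker-led cells for both genes, at 24.4 to 124 CPM for Bst1 and 67.0 to 213 CPM for Ppargc1a.

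Within ISC-marker-led cells, Ppargc1a was lower where G2/M genes were high. The cells of each mouse were ranked by 12 G2/M genes, and the highest tertile was compared with the lowest, with 46 to 115 cells per tertile and mouse. Mki67, a proliferation marker among these 12 genes, had 46.1 ± 39.0 CPM in the lowest and 2901 ± 759 CPM in the highest tertile. Ppargc1a had 46.1, 54.8 and 57.0 CPM in the lowest tertile of the young mice and 15.7, 30.4 and 22.1 CPM in their highest tertile. In aged mice 1 to 4 it had 31.2, 68.4, 18.9 and 26.6 CPM in the lowest and 30.8, 19.8, 8.65 and 12.4 CPM in the highest tertile. It was lower in 7 of 7 mice, by a small margin in aged mouse 1, and the log2 fold change was -1.13 ± 0.19 (adjusted p = 0.00294, edgeR, mouse as a block). The fall was called under each alternative tried and was between 1.03 and 1.29 on the log2 scale when a mouse was left out. Lgr5 was also lower in the highest tertile in 7 of 7 mice, with 295 ± 70.6 against 495 ± 113 CPM. The summed enterocyte markers took 0.0668% to 0.109% of reads in the highest and 0.0484% to 0.0725% in the lowest tertile. In the cells with the lower enterocyte scores of each mouse, a setting chosen after seeing the data, the log2 fold change of Ppargc1a was -1.42. Median depth was 313529 reads in the highest and 315914 in the lowest tertile, with medians of 9946.5 and 8498 detected genes.

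Other members moved less between the G2/M tertiles. By CPM, Rptor was lower in the highest tertile in 7 of 7 mice, with 24.3 ± 9.64 against 37.5 ± 16.6 CPM. In Rptor, young mouse 1 had the widest step, from 71.8 to 14.7 CPM. The log2 fold change of Rptor, -0.60 ± 0.24, was not called with edgeR (adjusted p = 0.136). It was called by DESeq2 (-0.61, adjusted p = 0.0488) and after thinning (-0.45, adjusted p = 0.0389), and its adjusted p reached 0.580 under the others. Mtor had 37.9 ± 6.91 against 30.2 ± 6.31 CPM and was higher in 5 of 7 mice, with a log2 fold change of 0.31 ± 0.17 that was not called. Tsc1 (-0.34 ± 0.14, adjusted p = 0.146) and Sirt3 (-0.40 ± 0.17, adjusted p = 0.154) missed the threshold in edgeR. They passed it when a mouse was left out: Tsc1 without aged mouse 1 (-0.45) and Sirt3 without aged mouse 3 (-0.53). The share of thinned cells with a read went the other way for Rptor, Sirt3 and Tsc1. For Rptor its mean rose from 57.9% ± 10.7 in the lowest to 66.7% ± 6.84 in the highest tertile, though aged mouse 2 fell. For Sirt3 it rose from 49.1% ± 7.67 to 58.0% ± 8.81, though young mouse 1 fell. For Tsc1 it rose from 67.7% ± 6.10 to 78.6% ± 4.93. For Ppargc1a it fell from 58.1% ± 8.63 to 53.1% ± 10.8, though aged mouse 1 rose. Why share and CPM differed was not tested. Nampt, Sirt6, Sirt1, Bst1 and Tsc2 had fold changes from -0.29 to 0.51. Of the 10 members, 1 was called lower, beside 5.22% of 19348 genes, and 0 higher, beside 7.54%.

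**Figure D5:**
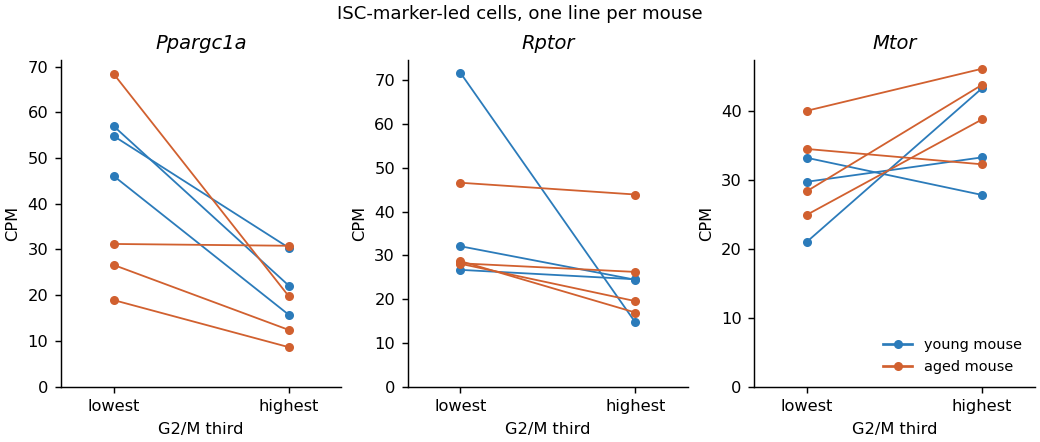
CPM of Ppargc1a, Rptor and Mtor in the lowest and the highest G2/M tertile of ISC-marker-led cells, with 1 line per mouse (blue, young, n = 3; orange, aged, n = 4). Ppargc1a and Rptor are lower in the highest tertile in 7 of 7 mice, and Mtor is higher in 5 of 7.

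The class effects were then compared between ages by an interaction term in edgeR. For Paneth-marker-led cells 0 of 10 members were called, beside 0% of all genes, and for the G2/M tertiles 0 of 10, beside 0%. At an unadjusted p under 0.05 these fits had 797 and 680 genes, and 0 of the members. For enterocyte-marker-led cells the young arm was 6 cells of young mouse 3, so age and this animal cannot be told apart. There 0 of 10 members were called, beside 0.170% of 21716 genes, and 2 members, Rptor and Nampt, were under an unadjusted p of 0.05. Rptor had 4.37 CPM in the enterocyte-marker-led cells of young mouse 3 and 14.2 to 27.4 CPM in those of the aged mice, and Nampt had 61.8 CPM and 22.9 to 29.6 CPM. The interaction of Ppargc1a between age and G2/M tertile was 0.18 ± 0.40, with an interval of -0.72 to 1.07.

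The same pathway lists were counted in the cell comparisons, where many genes of all kinds were called. In enterocyte-marker-led cells 15 of 137 tested list genes (10.9%) were called higher, beside 9.76% of all genes, and 21 (15.3%) lower, beside 9.99%. Without aged mouse 4 these counts were 6 and 8, beside 1232 and 716 of 18323 genes. Without aged mouse 2 they were 8 and 11, beside 1426 and 1089 of 19223 genes. NAD supply and use had 2 genes higher and 2 lower of 17, with Naprt, the first enzyme of NAD synthesis from nicotinic acid, at 152 ± 19.4 against 67.8 ± 16.0 CPM (log2 fold change 1.56, adjusted p = 0.000169, edgeR). The lysosomal amino acid list had 4 higher and 4 lower of 29, and Sesn1, a stress-induced sestrin, rose by 1.72 ± 0.23. Rhebl1, a relative of Rheb, rose by 1.88 ± 0.27. In the list of mTOR complex subunits 1 gene was called higher and 3 lower of 10. Prr5l, an mTORC2 interactor, was at 1.10 to 7.31 CPM in enterocyte-marker-led cells and at or under 0.885 CPM in ISC-marker-led cells, and its call was lost without aged mouse 4. Igf1r, the IGF-1 receptor, fell by 1.47 on the log2 scale, and the list of insulin and PI3K input had 0 higher and 3 lower of 16. The mTORC1 effectors had 2 higher and 5 lower of 27, among them Pdcd4, an inhibitor of translation initiation, which fell by 1.14. Of the PGC-1 partners and targets 2 were higher and 4 lower of 20, and Tfam, which packages mitochondrial DNA, fell by 1.05 while Ppargc1a itself was higher. Sirt7 rose by 0.73 and Cab39, in the list of AMPK and its kinases, by 0.86. The calls of Sirt7, Cab39 and Pdcd4 were lost without aged mouse 4, that of Sirt7 also without young mouse 3.

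In Paneth-marker-led cells 9 of 137 list genes (6.57%) were called higher with edgeR and 12 (8.76%) lower, shares near the 6.47% and 8.33% of all genes. DESeq2 called 19 higher and 10 lower, beside 2167 and 1311 of 19883 genes. Without aged mouse 4 edgeR called 6 and 8, beside 950 and 957 of 19454 genes. The mTORC1 effectors had 6 higher and 2 lower of 28, with a median of 0.02 beside -0.20 for all genes. Atf4, a transcription factor of amino acid synthesis genes, had the smallest p of them (0.84 ± 0.15, adjusted p = 0.000813), although its CPM was higher in only 1 of 7 mice. Akt1 (0.73 ± 0.22) likewise was higher by CPM in 2 of 7 mice. Of the main fit and 11 alternatives, 7 called Akt1. Fits without aged mouse 2, 3 or 4 or young mouse 1 were among those that did not. The mTOR complex list had 0 higher and 2 lower of 9, and Mlst8, the subunit shared by both complexes, fell by 1.26 and was lower by CPM in 7 of 7 mice. Parp2 fell by 0.77, the AMPK subunit gene Prkab1 by 0.88 and the mitochondrial transcription factor gene Tfb2m by 0.94, each lower by CPM in 7 of 7 mice. Mtor, Tsc1 and Tsc2, which were not called, were also lower by CPM in 7 of 7 mice. The count of mice by CPM therefore does not set the called genes apart.

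Between the G2/M tertiles 11 of 137 list genes (8.03%) were called higher with edgeR and 9 (6.57%) lower, near the 7.54% and 5.22% of all genes. DESeq2 called 17 and 18, beside 2004 and 1787 of 19348 genes. Without young mouse 2 the counts were 7 and 5, beside 1040 and 671 of 18794 genes. Without aged mouse 2 or aged mouse 4 they were 8 and 5. All genes then had 1058 and 664 of 20156, and 1139 and 689 of 18822. The mTORC1 effectors had 4 higher and 1 lower of 27, and Mthfd2, a mitochondrial enzyme of the folate cycle, rose from 16.6 ± 4.57 to 38.5 ± 8.66 CPM (log2 fold change 1.22, adjusted p = 0.00149, edgeR). The lysosomal amino acid list had 3 higher and 1 lower of 30, led by Seh1l (0.54 ± 0.11), which is also a nuclear pore protein. The insulin and PI3K list had 0 higher and 3 lower of 16, and Insr, the insulin receptor, fell from 118 ± 13.5 to 72.2 ± 15.9 CPM. Gabpb1, a subunit of the GABP factor of mitochondrial genes, rose by 1.16, and the AMPK subunit gene Prkag1 by 0.76. Rictor, the defining subunit of mTORC2, fell by 0.37 and was lower by CPM in 7 of 7 mice. Of the main fit and 12 alternatives, 7 called Rictor. Fits without aged mouse 2, aged mouse 4 or young mouse 2 were among those that did not. In the cells with lower enterocyte scores, with 23 to 58 cells per tertile and mouse, the calls of Rictor (-0.53), Seh1l (0.83), Prkag1 (0.81), Insr (-0.58) and Gabpb1 (0.76) ended with their directions kept. The lists of other sirtuins, NAD supply and use, and TSC complex and Rheb had 0 genes called between the tertiles.

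Over the cells of a mouse, the members were weakly correlated with each other. The correlation of log2(CPM + 1) over cells, averaged over the 7 mice, ranged from -0.07 to 0.24 in the 45 pairs of members. The highest was that of Tsc2 and Mtor, followed by Ppargc1a and Bst1 (0.20). These values are descriptions in sparse counts of unequal depth. Bst1 stood apart by its likeness to genes of absorptive cells: among 14765 genes with a read in at least 10% of cells, the most like it were Slc6a19 (0.818), a neutral amino acid transporter, Slc15a1 (0.803), a peptide transporter, and Cyp3a11 (0.760). For Ppargc1a they were the catalase gene Cat (0.275), Fam234a (0.268) and the brush border gene Vil1 (0.264). For Sirt3 the most like gene was Ric8a (0.339), with which it shares exonic bases, followed by Atp5a1 (0.256) and Ldha (0.242). For Nampt they were Ldha (0.327), Cs (0.295) and Eif2s3x (0.295), of which Ldha encodes a lactate dehydrogenase subunit and Cs citrate synthase. The most like genes of the remaining members were Srsf1 for Mtor (0.337), Ptprk for Tsc2 (0.340), Ptbp1 for Rptor (0.277), Nbr1 for Tsc1 (0.271), Psmb6 for Sirt6 (0.242) and Cnot6 for Sirt1 (0.139). The cells of a mouse shared an animal and, but for young mouse 2 with its 2 lanes, a lane. The likeness is given without a test.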

How the data were processed

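Single Lgr5-high cells were sorted into plates by the authors, who made Smart-seq2 type libraries without molecular identifiers. The deposited values are raw counts of single-end reads, given for each gene in each cell. The submitters' processing notes name HISAT2 and HTSeq with GRCm38, while tool versions, annotation and strand setting were not given in the sources used here. Symbols, exons and coordinates came from GENCODE M21 (GRCm38), promoters from RefSeq (GRCm38.p6).

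A minimum of 1000 detected genes left 1836 cells, and no doublet caller was run. The 10 genes, the 9 pathway lists, the marker lists and the tests were chosen with earlier results of these data known, and the settings without enterocyte-marker-led cells and in lower enterocyte scores were added after seeing the data. Counts were summed per mouse (or per mouse and class of at least 5 cells) and tested with edgeR 4.0.16 in R 4.3.3 (quasi-likelihood test, TMM, filterByExpr, Benjamini-Hochberg over all genes tested, threshold 0.05). The SE is the log2 fold change divided by the root of F. Class and tertile fits had the mouse as a block. DESeq2 1.42.0, limma 3.58.1 (voom), other scaling, filters, cells, thinning and blocks, and each mouse left out were alternatives. Python 3.11.15, numpy 2.4.6, pandas 2.3.3 and scipy 1.17.1 were used, and the fits were tested on simulated counts.

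A class is the marker list with the highest mean log2(CPM + 1), and in 1.14% of cells that list led by under 0.25. A code shared by 384 cells in their names was taken as the lane, and 3 of 5 lanes held both ages. From the pathway lists the text names genes with an unadjusted p under 0.05 between ages (at most 3 per list, or the gene of smallest p) and the called gene of smallest p per list in the other comparisons, and for each member the 3 genes most like it by mean within-mouse Pearson correlation, or the first of them. Nnt, with 2 matrix entries, and Samtor, with none, were left out. Reads numbered 1695 in the shallowest kept cell and 305492 in the median cell, and precision from reads covers counting error only. The labels name separate mice and say no more of them, so p-values between ages measure the spread between these 7 animals. Those of class and tertile fits measure the spread of differences within mice, over 4 mice for enterocyte-marker-led cells.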

Additional observations from a re-analysis of the deposited data

Results flagged for a closer look

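In 2 cases an aged mouse stood farther from the others than Dixon's 95% critical value for 4 samples allows. Sirt1 had 6.04 CPM in aged mouse 2, beside 3.49 to 3.69 CPM in the other 3 aged mice, with a gap of 0.921 of the range. Rptor had 40.8 CPM in aged mouse 4, beside 24.4 to 26.4 CPM in the other 3, with a gap of 0.879 of the range. Of 20 such checks over the 10 genes (CPM and share of thinned cells with a read), 2 exceeded the value, and chance flags about 1 in 20 groups.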

How the results depend on the processing

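No member was called between ages under any of the 20 alternatives, among them DESeq2, limma voom, other scaling and filters, other cells, thinning, the replicate block, the lane as a block and each mouse left out. The median log2 fold change of the members, 0.12, was -0.020 with cells weighted equally. The replicate numbers did not pair the mice (correlations of deviations of -0.02, 0.11 and -0.11), aged mouse 4 had no partner, and with the replicate block Bst1 was at 0.89, Mtor at -0.020, Rptor at -0.12 and the median at 0.04. Signs between ages also turned with cells weighted equally for Sirt1 (-0.028), Sirt6 (-0.063), Rptor (-0.013) and Tbc1d7 (-0.038), with the lane as a block for Rptor (-0.0090), and after thinning for Tbc1d7 (-0.062). With a mouse left out, the ranges were -0.090 to 0.41 for Sirt1, -0.12 to 0.65 for Sirt6, -0.021 to 0.19 for Mtor, -0.13 to 0.20 for Rptor, -0.20 to 0.010 for Tsc2, -0.52 to 0.0017 for Ppargc1a and -0.033 to 0.62 for Tbc1d7. Members whose CPM did not overlap numbered 0 to 1, and those whose thinned shares did not overlap 0 to 2 (Bst1, Sirt3, Nampt, Tsc1 or Sirt6, depending on the mouse). The shares of all genes with a mouse left out were not counted, so these counts have no background.

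Between Paneth-marker-led and ISC-marker-led cells, the 1 call became 2 with DESeq2, which added Sirt1, and 0 to 2 with a mouse left out, and Tsc2 turned to 0.026 with DESeq2. Over all genes the Paneth calls were 2943 with edgeR and 3478 with DESeq2, of 19883. Between enterocyte-marker-led and ISC-marker-led cells, the 2 calls became 4 after thinning, which added Sirt6 and Nampt. Over all genes these calls rose from 3869 of 19589 to 4851 of 15932. Mtor turned to 0.049 with DESeq2 and ranged from -0.17 to 0.11 with a mouse left out, Tsc1 was at -0.032 where the leading list was ahead by at least 1, and Tsc2 ranged from -0.24 to 0.29. Between G2/M tertiles, the 1 call became 2 with DESeq2 and after thinning, both adding Rptor, and 1 to 2 with a mouse left out. Sirt1 turned to -0.028 after thinning and to -0.13 in the lower enterocyte scores, Sirt6 ranged from -0.097 to 0.30 and Bst1 from -0.076 to 1.18 with a mouse left out. The cause of these changes was not tested. Bst1 and Ppargc1a kept their calls in enterocyte-marker-led cells under all 8 alternatives. Over all genes, the 0 calls between ages became 177 with DESeq2, 22 with no filter, 9 with cells weighted equally, 6 after thinning, 2 with limma voom or the replicate block, 1 with the lane as a block and 0 to 8 with a mouse left out. The 2469 calls between tertiles became 3791 with DESeq2, 3953 after thinning and 954 in the lower enterocyte scores. Without aged mouse 4, the 3869 enterocyte calls became 1948 and the 2943 Paneth calls 1907, and without aged mouse 2 the enterocyte calls became 2515.

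The comparison of enterocyte-marker-led cells rests on 4 mice, 1 of them young, and classes come from marker lists, so they are ranges of scores. Between ages, 3 against 4 mice gave intervals as wide as that of Bst1.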
